A study of Mus musculus with 2 samples.

Results

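Keratins are the proteins that build the intermediate filaments of epithelial cells, and the family is described here gene by gene in single cells of the mouse maxillary periodontium. Its members were all genes whose symbol is Krt followed by a number and an optional letter, with at least 20 unique molecular identifiers (UMIs) summed over both libraries. Of the 32285 genes measured, 53 had such a symbol and 43 of those reached 20 UMIs. The 43 members comprise 21 type I keratins, 21 type II keratins and Krt222, a keratin-like gene of neither type. In the mm10 annotation 21 members lie on chromosome 11 and 22 on chromosome 15, where Krt18 is the 1 type I gene among the type II genes. The 10 symbols left out had 18 UMIs or fewer, and 3 of them had 0.

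A keratin filament is built from pairs of a type I (acidic) and a type II (basic) chain, so that an epithelial cell makes at least 1 of each. Stratified epithelia make Krt5 and Krt14 in their basal layer and switch to other pairs as cells leave it: Krt4 and Krt13 in the soft lining of the mouth, Krt1 and Krt10 in cornified epithelium. Krt6a, Krt16 and Krt17 are known from wounded or stressed skin and are also made by healthy oral mucosa, and Krt8 and Krt18 form the filaments of simple epithelia such as glands.

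The series, on the resolution of periodontitis in diabetes, has 2 droplet libraries from the Chromium 3' v3 kit of 10x Genomics. They are titled RP and 377P, and each title has 1 library. What the titles mean is not stated, and the labels give no genotype, strain, age, treatment or number of animals pooled, so neither library is taken as a control. RP held 18112 barcodes with 120909095 UMIs, of which 16721 cells were kept, and 377P held 15466 barcodes with 127094166 UMIs, of which 14515 were kept. A total of 82 barcode sequences occurred in both.

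Cells were clustered and named without any keratin gene, so that keratin levels could be read in classes that keratins did not define. Basal keratinocytes numbered 1988 in RP and 2362 in 377P, and all 11 basal markers, such as Col17a1 and Itga6, reached 20 counts per 1000000 UMIs (CPM) in both. Suprabasal keratinocytes numbered 1312 in RP and 795 in 377P, with 12 and 11 of the 12 suprabasal markers at that level. Of the basal markers 9 in RP and 11 in 377P also reached it in suprabasal cells, but at lower sums. These were 1084.5 CPM in RP and 1597 CPM in 377P, against 2867 and 3692 CPM in basal cells. Mucous gland cells numbered 1116 in RP and 138 in 377P, and serous or demilune gland cells 330 in RP and 84 in 377P. The 2 keratinocyte layers came from different clusters in each library. Basal cells were clusters 2 (1399 cells) and 4 (589) in RP and cluster 19 (2355) in 377P, and suprabasal cells were clusters 0 (880) and 3 (430) in RP and clusters 18 (737) and 3 (56) in 377P. Clusters 2 and 19 share leading genes such as Pappa, Nrg1 and Col17a1, and clusters 0 and 18 share Mt4, Serpinb12 and Tgm3, so each pair is also compared alone. A cluster held almost wholly by 1 library may stand for that library and not for a cell type. Clusters that took no name held 28.9% of the epithelial and gland cells in RP and 27.0% in 377P.

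The bases before the start site are shown for 5 members whose levels separate the layers, Krt5 as the basal type II keratin and Krt13, Krt24, Krt76 and Krt10 as keratins that were higher above the basal layer. Each line gives the 200 bases upstream of the RefSeq start site on GRCm38.p6, 5′ to 3′ on the gene's strand, with motif matches in capitals. The motifs, searched on both strands, were the TATA-type TATAAA, the variant ATAAAAG, the CACCC box and the AP-1 type TGANTCA.

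Krt5, chr15:101712906-101713105, minus strand: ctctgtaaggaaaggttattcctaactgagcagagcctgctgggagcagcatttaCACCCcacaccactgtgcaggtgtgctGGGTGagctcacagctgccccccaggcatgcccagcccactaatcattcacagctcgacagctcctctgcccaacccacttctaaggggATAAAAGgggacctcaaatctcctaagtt
Krt13, chr11:100121567-100121766, minus strand: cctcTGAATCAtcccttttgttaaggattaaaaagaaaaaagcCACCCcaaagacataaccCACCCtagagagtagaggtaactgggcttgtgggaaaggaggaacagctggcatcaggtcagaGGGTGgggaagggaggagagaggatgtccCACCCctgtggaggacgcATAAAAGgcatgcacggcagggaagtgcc
Krt24, chr11:99285263-99285462, minus strand: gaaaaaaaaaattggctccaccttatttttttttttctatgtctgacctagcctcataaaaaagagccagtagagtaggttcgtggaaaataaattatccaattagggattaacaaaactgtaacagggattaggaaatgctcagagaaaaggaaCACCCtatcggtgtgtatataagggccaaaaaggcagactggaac
Krt76, chr15:101892921-101893120, minus strand: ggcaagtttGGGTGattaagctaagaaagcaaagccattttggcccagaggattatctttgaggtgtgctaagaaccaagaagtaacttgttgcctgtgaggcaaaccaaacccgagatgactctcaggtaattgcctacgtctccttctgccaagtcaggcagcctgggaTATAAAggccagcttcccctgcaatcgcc
Krt10, chr11:99389365-99389564, minus strand: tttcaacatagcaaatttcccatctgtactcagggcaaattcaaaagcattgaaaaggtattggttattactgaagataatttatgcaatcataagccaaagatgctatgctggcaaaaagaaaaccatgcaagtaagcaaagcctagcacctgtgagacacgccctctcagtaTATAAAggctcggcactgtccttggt

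In Krt5 and in Krt13 an ATAAAAG lies 29 to 23 bases before the start. A TATAAA lies 29 to 24 bases before the start of Krt76 and 26 to 21 bases before that of Krt10. RefSeq promoters were matched for 26 of the 43 members. Among those counted, the RefSeq starts of Krt7, Krt8, Krt14 and Krt18 lie inside or next to the annotated gene body, so their windows may overlap it. The windows shown above lie outside the annotated genes. ATAAAAG occurred in 8 of these 26 (30.8%) and in 4.17% of 27025 mouse promoters of the same length, and TATAAA in 8 (30.8%) and in 10.6%. CACCC, the core of Krüppel-like factor sites, occurred in 19 (73.1%) against 44.9% of all promoters, and TGANTCA, an AP-1 type site, in Krt13 alone against 5.55%. ATAAAAG and TATAAA can overlap in 1 stretch of sequence, and the motifs were picked after these sequences had been read. The counts describe letters and not binding.

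Among the named epithelial classes of at least 50 cells in each library, keratin transcripts took up the largest share of UMIs in suprabasal keratinocytes and the smallest in glands. Summed over the members, they came to 33854 CPM in RP and 30439 CPM in 377P in suprabasal cells, and to 15390 CPM in RP and 16082 CPM in 377P in basal cells. In mucous gland cells the sums were 4257 CPM in RP and 4844 CPM in 377P, and in serous gland cells 4363 and 6081 CPM. The median suprabasal cell spent 2.73% of its UMIs on keratins in RP and 2.67% in 377P, and the median basal cell 1.44% and 1.54%. Droplets also catch free RNA, and B or T cells, which should make no epithelial keratin, carried 2208 CPM in RP and 2318 CPM in 377P. Their most abundant keratin was Krt14, with 645 CPM in RP and 963 CPM in 377P. Levels are therefore read beside the level in B or T cells of the same library, which is called background here and is given where a level comes near it. Of the members abundant in keratinocytes, background was 213 CPM in RP and 249.1 CPM in 377P for Krt6a, 119 and 138 CPM for Krt16, 144 and 105 CPM for Krt17 and 123 and 97.7 CPM for Krt76. UMIs of a 3' kit count transcript ends, so levels of genes can be compared without correcting for length.

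**Figure D1:**
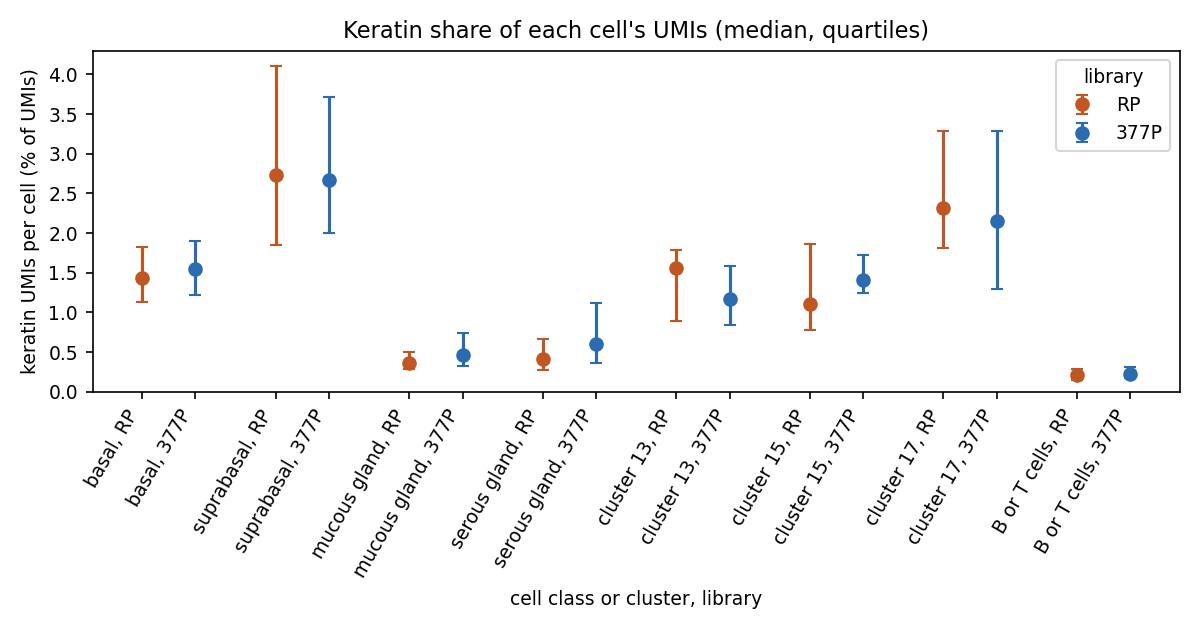
Keratin UMIs as a percentage of each cell's UMIs, by cell class or cluster and library, with points at the median and bars from the lower to the upper quartile of cells. Suprabasal cells, at 2.73% in RP and 2.67% in 377P, lie above basal cells, at 1.44% and 1.54%, and both lie above gland cells and B or T cells.

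The make-up of the keratins differed between layers and glands. Krt5, Krt14 and Krt15 gave 72.7% of keratin UMIs in RP and 78.6% in 377P in basal cells, against 28.5% and 39.5% in suprabasal cells. The simple keratins gave 62.8% in RP and 51.1% in 377P in mucous cells and 63.1% and 65.3% in serous cells. The stress keratins Krt6a, Krt6b, Krt16 and Krt17 gave 31.3% in RP and 28.4% in 377P in suprabasal cells, more than Krt4 and Krt13 together (21.9% and 16.2%). Of the 43 members, 33 had their highest epithelial level in a keratinocyte layer and 10 in a gland class, and 20 stayed under 5 CPM in each of these 4 classes. Of the 10, only Krt8, Krt18 and Krt23 passed 5 CPM, so the place of the others rests on few UMIs. Krt27, Krt83, Krt88 and Krt222 lay below background even at their highest epithelial level. The same count was not made over all genes, so it is not read as a trait of the family.

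**Figure D2:**
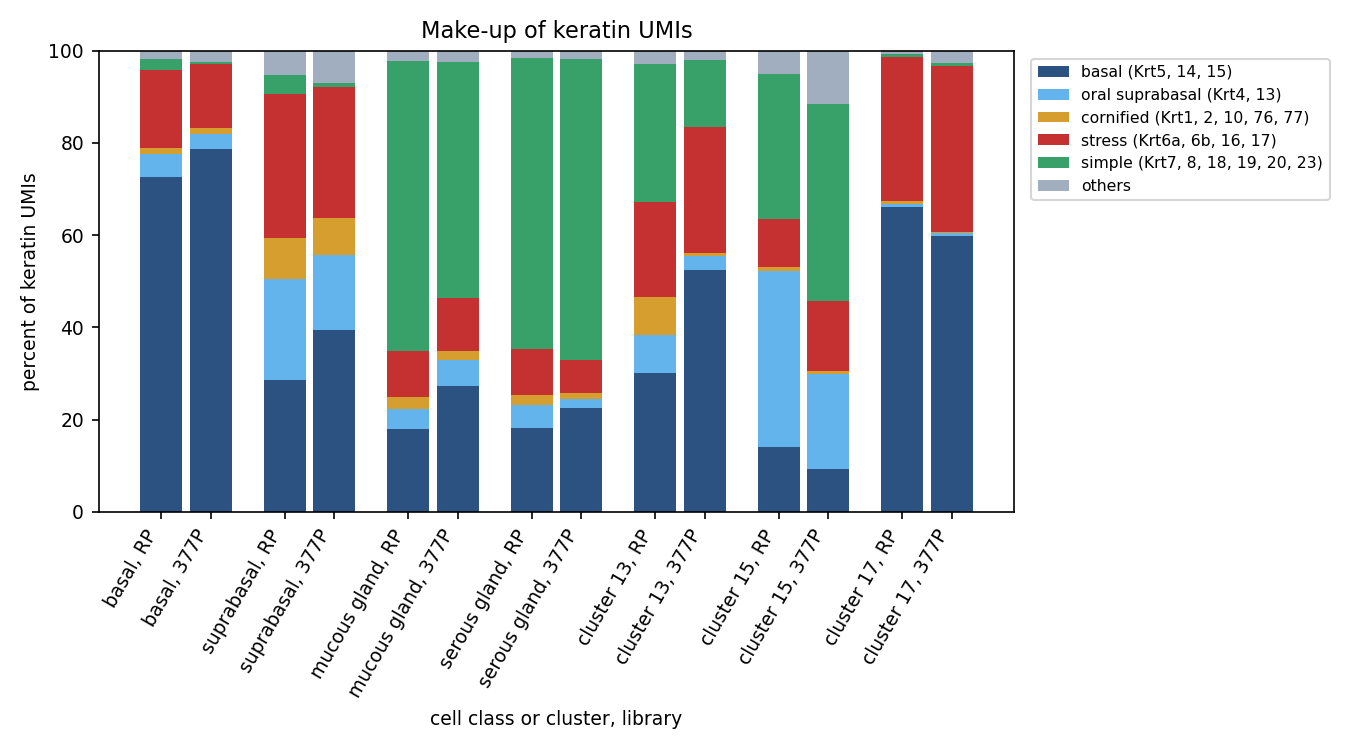
Share of keratin UMIs (percent) taken by 6 keratin groups, by cell class or cluster and library. Basal keratins make up 72.7% of the bar of basal cells in RP and 78.6% in 377P, and simple keratins 62.8% and 51.1% of the bar of mucous gland cells.

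The 12 members that reached 1000 CPM in a named class are described with their level in each layer. Intervals are exact 95% Poisson intervals and cover counting error only. At levels of at least 1000 CPM in the layers they reached no more than 1.56% to either side, and at lower levels of these members no more than 7.30%. With 1 library for each title no difference between RP and 377P has a replicate check, and none was tested.

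Krt14, the type I keratin of the basal layer, was the most abundant member. It lies on chromosome 11, from 100203162 to 100207548 (minus strand). Basal cells had 7318 CPM in RP and 8949 CPM in 377P, and suprabasal cells 6090 and 9020 CPM. In 377P it was as high above the basal layer as within it. Its type II partner Krt5 had 2633 CPM in RP and 2768 CPM in 377P in basal cells and 1559 and 1885 CPM in suprabasal cells. Krt15, a type I keratin known from basal and stem cells of stratified epithelium, had 1234 CPM in RP and 927 CPM in 377P in basal cells and 2008 and 1119 CPM in suprabasal cells. Background was 197 CPM in RP and 247 CPM in 377P for Krt5 and 114 and 101 CPM for Krt15.

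Within the layers these 3 genes followed the clusters. In the counterpart basal clusters Krt14 had 8556 CPM in RP (cluster 2) and 8954 CPM in 377P (cluster 19), a ratio of 0.956. Krt5 had 2884 CPM in RP and 2770 CPM in 377P there, a ratio of 1.04. RP cluster 4, the second basal cluster, had less Krt14 (4062 CPM) and Krt5 (1974 CPM) and more Krt15 (2756 CPM). For Krt15 the direction depended on which cells were compared: it was higher in RP over all basal cells (ratio 1.33), and lower in RP in clusters 2 and 19 (655 CPM in RP, 927 CPM in 377P, ratio 0.706). The same turn was seen in suprabasal cells, with a ratio of 1.80 over all cells and 0.637 in clusters 0 and 18. Suprabasal cluster 3, which holds 32.8% of the layer in RP and 7.04% in 377P, carried 3916 CPM of Krt15 in RP and 2200 CPM in 377P.

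Krt13 and Krt4, the pair of the lining mucosa, were mostly suprabasal. Krt13 had 5205 CPM in RP and 3974 CPM in 377P in suprabasal cells, against 614 and 478 CPM in basal cells and a background of 185 and 140 CPM. Krt4 had 2215 CPM in RP and 968 CPM in 377P in suprabasal cells. In basal cells it had 133 CPM in RP and 43.8 CPM in 377P, against a background of 69.3 and 33.7 CPM. At an equal depth of 2000 UMIs a cell Krt4 was seen in 15.2% of basal cells in RP (95% interval 13.7 to 16.9) and 13.3% of B or T cells (11.01 to 15.8). In 377P the shares were 7.02% (6.01 to 8.15) and 6.53% (5.78 to 7.34). Unthinned, the shares were 47.7% and 18.5% in RP and 31.8% and 11.3% in 377P. Thinning does not make the free RNA in each cell equal, so these shares cannot tell expression from background. How much of the Krt4 in basal cells is free RNA was not tested. Cluster 3 was the richest in Krt4, with 3716 CPM in RP and 2622 CPM in 377P. In clusters 0 and 18 Krt13 was 1.42-fold and Krt4 1.44-fold as high in RP as in 377P, with 5613 CPM of Krt13 in RP and 3965 CPM in 377P. Krt4 was uneven between cells: in cluster 18 of 377P 306 of 737 cells carried it, and 2 cells held 2164 of its 10360 UMIs.

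Krt76 and Krt24 were also suprabasal, but low in the cluster richest in Krt4. Krt76, the type II keratin of gingiva and palate, had 2505 CPM in RP and 1936 CPM in 377P in suprabasal cells and 166 and 204 CPM in basal cells. Krt24, a type I keratin known from differentiating human keratinocytes, had 1570 CPM in RP and 1890 CPM in 377P in suprabasal cells and 226 and 342 CPM in basal cells. In cluster 3 Krt76 had 348 CPM in RP and 73.6 CPM in 377P, of which the 377P value lies below background, and Krt24 had 77.8 and 88.5 CPM, close to the background of 75.9 and 91.1 CPM. In clusters 0 and 18 Krt76 had 4037 CPM in RP and 2108 CPM in 377P, a ratio of 1.92 (1.89 to 1.95), and Krt24 had 2630 and 2057 CPM.

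Krt10 and Krt1, the pair of cornified skin, were minor keratins here. Krt10 had 416 CPM in RP and 355 CPM in 377P in suprabasal cells, and 27.1 and 26.1 CPM in basal cells, where background was 26.7 and 18.5 CPM. Krt1 had 115 CPM in RP and 107 CPM in 377P in suprabasal cells, against a background of 5.08 and 4.38 CPM. Only 191 of 1312 of these cells carried it in RP and 121 of 795 in 377P. In RP 2 cells held 306 of its 1857 UMIs, and in 377P 2 cells held 491 of 1516. Krt10 in clusters 0 and 18 was 654 CPM in RP and 383 CPM in 377P. Krt2, the type II keratin of the upper epidermis, stayed under 1 CPM in both layers of both libraries.

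A finer clustering (resolution 2.0 in place of 1.0) set apart 276 cells of RP and 1 of 377P that took the name cornifying keratinocyte, with Lor, Crnn and Tgm3 among their leading genes. In these RP cells keratins summed to 53892 CPM, and the median cell spent 5.18% of its UMIs on them. Krt13 led with 11657 CPM, followed by Krt76 with 8807, Krt6a with 6837, Krt14 with 6388, Krt16 with 5651 and Krt24 with 4932 CPM. Krt10 had 1569 CPM and Krt1 212 CPM. They were part of cluster 0 at the main resolution, so the RP suprabasal values above include them, and 377P offered no such group to compare.

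Of the stress keratins, Krt6a and Krt16 were mainly suprabasal, with ratios of 0.871 and 0.890 in that layer. Krt6a, a type II keratin, had 4243 CPM in RP and 4872 CPM in 377P in suprabasal cells and 992 and 1132 CPM in basal cells. Krt16, its type I partner, had 2094 CPM in RP and 2354 CPM in 377P in suprabasal cells and 368 and 440 CPM in basal cells. Krt6b, a close copy of Krt6a, had 827 CPM in RP and 528 CPM in 377P in suprabasal cells. No stretch of 50 bases in the last 500 bases of their annotated transcripts is shared by Krt6a and Krt6b.

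Krt17, a type I keratin of wounds and of hair follicles, had the largest ratio of the stress keratins over all keratinocytes, with 2193 CPM in RP and 709 CPM in 377P (ratio 3.09). Krt6b came next with 374 CPM in RP and 165 CPM in 377P (ratio 2.26). Suprabasal cells had 3435 CPM in RP and 902 CPM in 377P (ratio 3.81), and basal cells 1240 CPM in RP and 631 CPM in 377P (ratio 1.97). Among the layers' clusters, cluster 3 carried 7242 CPM of Krt17 in RP and 2926 CPM in 377P, and basal cluster 4 of RP carried 2962 CPM. In clusters 2 and 19 Krt17 had 585 CPM in RP and 631 CPM in 377P, and in clusters 0 and 18 it had 731 and 725 CPM (ratio 1.008), where Krt6b had 1017 and 538 CPM (ratio 1.89). The basal ratio of Krt17 also depends on cluster 13, which took no name and is not among the basal cells (12 cells in RP, 359 in 377P). All 11 basal markers and 5 of 8 nasal-type secretory markers reached 20 CPM in its 377P cells, but suprabasal cells of 377P gave the same counts. The basal markers summed to 2680 CPM in its 377P cells, against 3692 CPM in basal and 1597 CPM in suprabasal cells of 377P. The nasal-type markers summed to 809 CPM, against 286 and 317 CPM. Cluster 13 shares the leading genes Mecom and Epas1 with cluster 4, and in 377P it carried 2460 CPM of Krt17 and 1480 CPM of Krt15. Counted as basal, it left Krt17 with 1243 CPM in RP and 864 CPM in 377P (ratio 1.44). Krt17 shares 9.53% of the 50-base stretches near its 3' end with Krt14, and Krt16 shares 1.33% with Krt14, so a part of their reads may have been left out or split in counting.

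**Figure D3:**
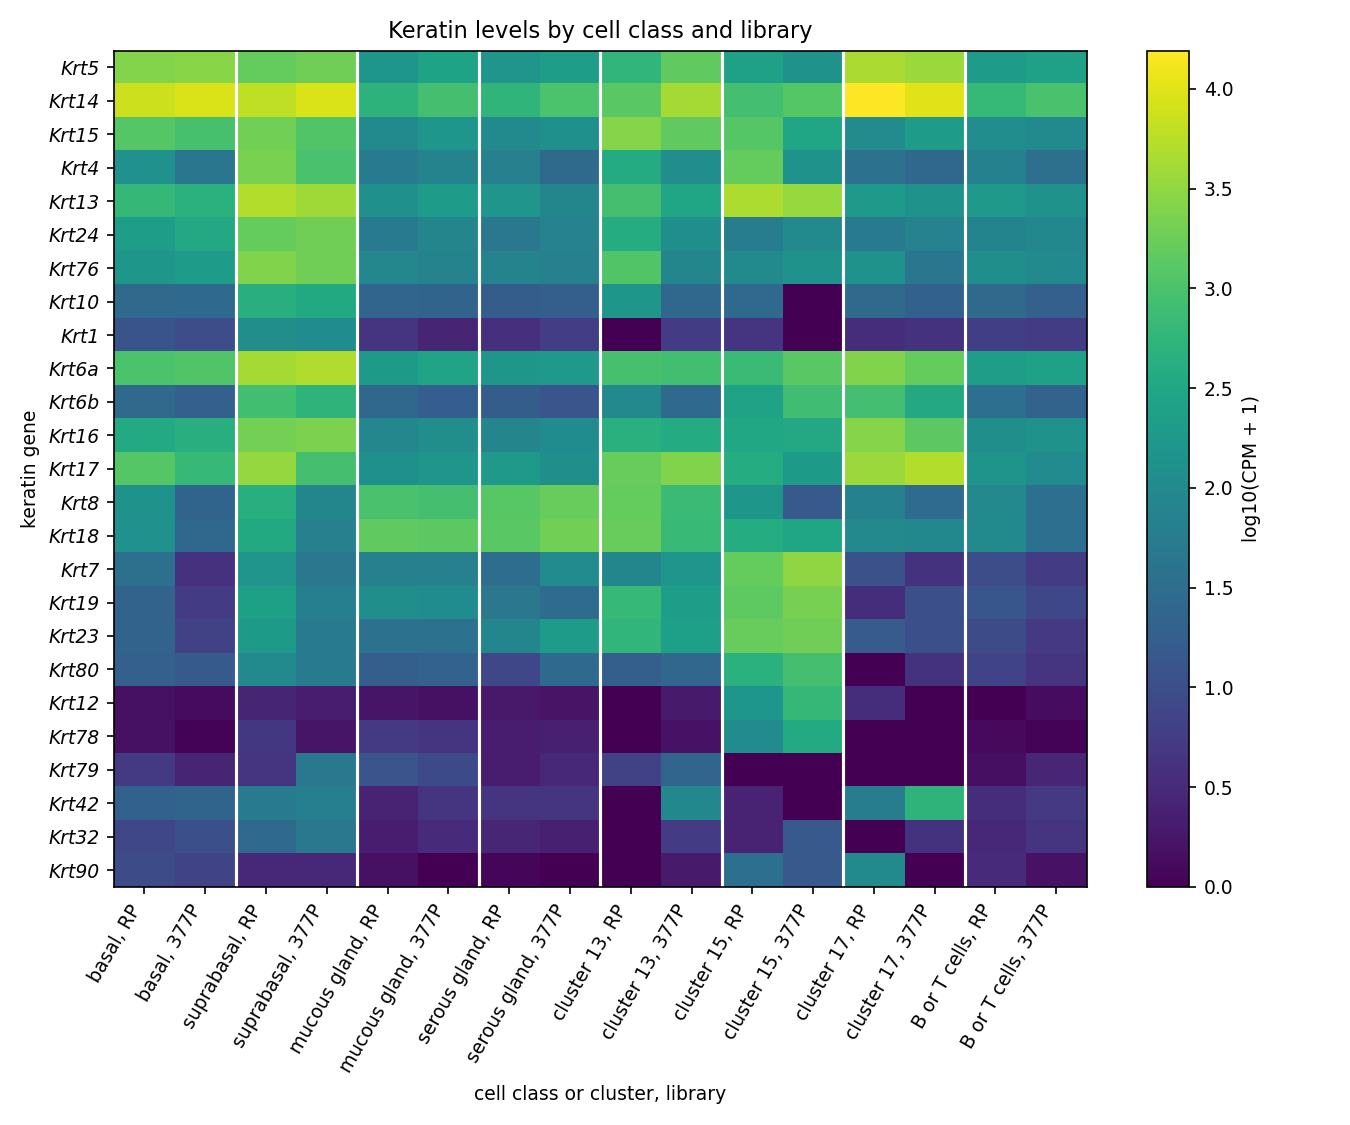
Keratin levels as log10 of CPM plus 1 (colour), with genes as rows and classes or clusters of each library as columns. Krt5 and Krt14 are bright in both layers, Krt4, Krt13, Krt24 and Krt76 in the suprabasal layer, and Krt8 and Krt18 in the glands.

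Gland cells made simple keratins. Krt18, type I, had 1482 CPM in RP and 1362 CPM in 377P in mucous cells and 1324 and 1984 CPM in serous cells. Krt8, its type II partner, had 971 CPM in RP and 904 CPM in 377P in mucous cells and 1270 and 1647 CPM in serous cells. Both stood at 10 times background or more, which was 99.0 CPM in RP and 33.6 CPM in 377P for Krt18 and 92.2 and 32.6 CPM for Krt8. Krt19 and Krt7, a pair known from ducts and simple epithelia, were lower: Krt19 had 120 CPM in RP and 108 CPM in 377P in mucous cells, and Krt7 had 65.7 and 64.7 CPM. Krt5 and Krt14 in glands lay near background, with 158 CPM of Krt5 in RP and 266 CPM in 377P in mucous cells and 513 and 892 CPM of Krt14.

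The serous classes of the libraries were partly different cells. Their 8 nasal-type secretory markers summed to 24.4 CPM in RP, where 0 of 8 reached 20 CPM and 3 were at 0, and to 39618 CPM in 377P, where 7 of 8 reached it. Krt23, a type I keratin of simple epithelia, had 83.9 CPM in RP and 208 CPM in 377P in serous cells, and Krt7 had 30.2 and 106 CPM. The part of the nasal-type cells in these values was not tested.

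In keratinocytes 5 simple keratins, Krt7, Krt8, Krt18, Krt19 and Krt23, had ratios between 5.04 and 6.79. Over all RP keratinocytes each of them reached at least 2 times background, and all 5 also passed 2-fold with free RNA subtracted. In several of the layers' clusters, given below, Krt8 and Krt18 lay below background. Of the members past 2-fold Krt78 (7.27, from 72 UMIs in RP and 13 in 377P) and Krt77 (6.13, from 28 and 6) were as far apart from few UMIs. Over all basal cells Krt8 had 133 CPM in RP and 21.1 CPM in 377P (ratio 6.31), and Krt18 had 130 and 24.1 CPM (ratio 5.40). The basal ratios depended on the clustering. With cluster 13 counted as basal, Krt8 had 145 CPM in RP and 109 CPM in 377P (ratio 1.34), Krt18 had 143 and 107 CPM (ratio 1.34), and Krt19 and Krt23 were lower in RP (ratios 0.796 and 0.732). At resolution 0.5, where basal cells numbered 3622 in RP and 421 in 377P, all 5 genes were at least 2-fold lower in RP, among them Krt8 with 265 CPM in RP and 692 CPM in 377P (ratio 0.382). In the main clustering Krt8 in RP basal cluster 2 (65.8 CPM) and suprabasal cluster 0 (65.0 CPM) was below the 92.2 CPM of RP B or T cells, and in 377P the basal cells, nearly all of cluster 19, and cluster 18 (17.2 CPM) were below the 32.6 CPM of 377P B or T cells. Krt18 behaved alike, with 84.1 and 69.5 CPM in RP clusters 2 and 0 and 24.1 and 19.6 CPM in 377P clusters 19 and 18. At 2000 UMIs a cell, Krt8 was seen in 18.8% of RP basal cells (17.1 to 20.6) and 15.9% of RP B or T cells (13.4 to 18.6), and in 4.28% (3.48 to 5.19) and 5.35% (4.67 to 6.09) of those of 377P. Without thinning the basal shares were 52.7% in RP and 24.8% in 377P and the B or T shares 23.8% and 8.64%, at median depths of 9663 and 13768 UMIs in basal cells and 2429 and 2879 in B or T cells. The gland's own markers moved with these values: the 8 mucous markers, none of them at 0, summed to 6688 CPM in basal cells of RP and 894 CPM in those of 377P, and to 7375 and 1026 CPM in suprabasal cells. Their part in the ratios was not tested.

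Krt8 and Krt18 stood above background in 2 of the layers' main clusters, 4 and 3. Krt23 stood above it in clusters 0 and 18 as well, with 44.7 CPM in RP and 29.7 CPM in 377P against a background of 8.13 and 4.05 CPM. Background was 8.89 CPM in RP and 4.33 CPM in 377P for Krt7 and 12.4 and 7.17 CPM for Krt19. Basal cluster 4 of RP had 311 CPM of Krt8, 252 CPM of Krt18 and 97.0 CPM of Krt7. Cluster 3 had 973 CPM of Krt8 in RP and 844 CPM in 377P, 745 and 581 CPM of Krt18, 557 and 729 CPM of Krt19, 352 and 516 CPM of Krt7, and 397 and 259 CPM of Krt23. Its 377P values lean on few cells. There 2 of 56 cells held 366 of 832 UMIs of Krt19, 256 of 589 of Krt7 and 117 of 296 of Krt23. For Krt8 and Krt18 2 cells held 235 of 964 and 195 of 663. This cluster was a mixture. At resolution 2.0, 328 of its 430 RP cells and 30 of its 56 cells of 377P fell with a cluster led by Sprr1a, Hopx and Spink5, 74 and 17 with one led by Muc5ac and Tff1, and 22 and 4 with a ciliated one. The Sprr1a cluster had 705 CPM of Krt8 in RP and 443 CPM in 377P, and the Muc5ac cluster 2074 and 1590 CPM.

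**Figure D4:**
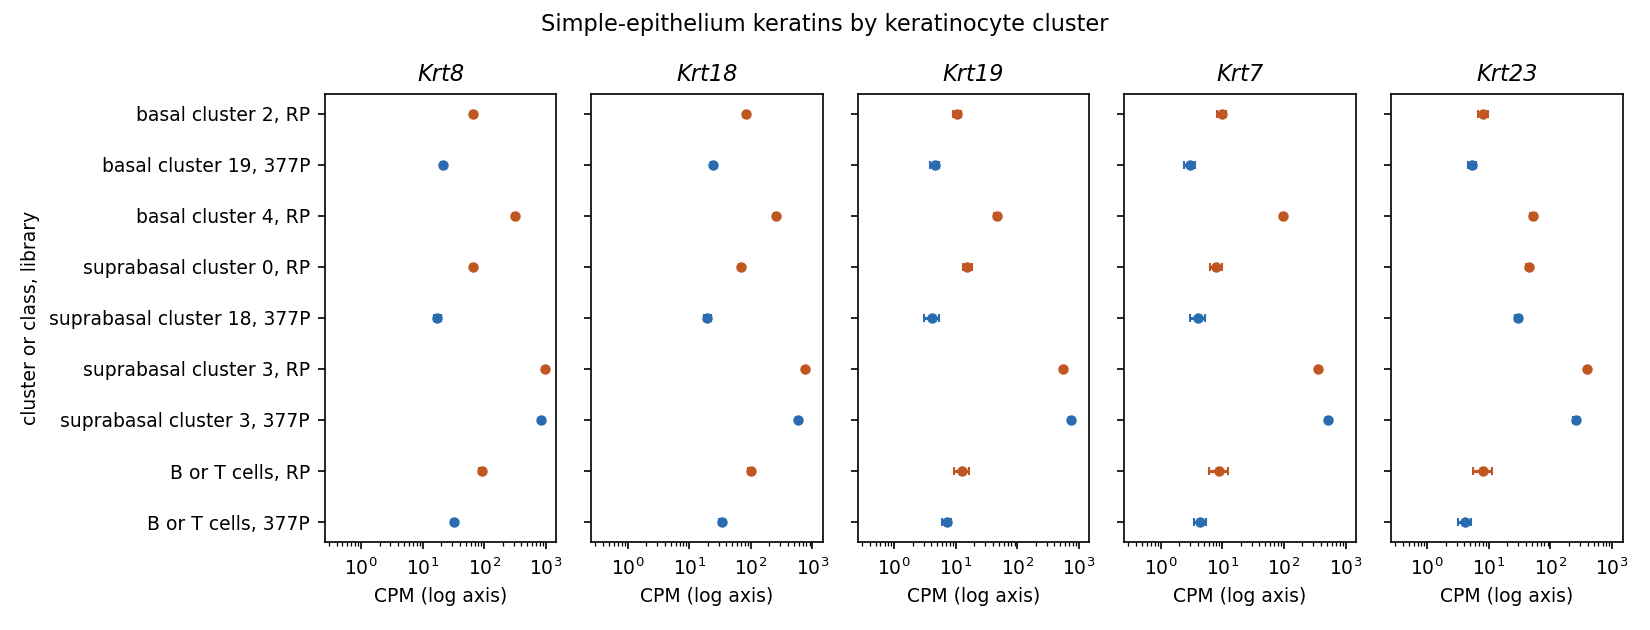
CPM (log axis) of 5 simple keratins by keratinocyte cluster and library, with B or T cells in the lowest rows and exact 95% Poisson intervals for counting error as bars. In clusters 2, 19, 0 and 18 Krt8 and Krt18 lie below the B or T cells of the same library, and in clusters 4 and 3 above them.

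Both genes of the basal pair, and both of the simple pair, were seen in most cells of their class. At 2000 UMIs a cell, which left out 52 basal cells of RP and 70 of 377P, 180 and 25 suprabasal, 119 and 51 mucous and 463 and 1043 B or T cells, Krt5 and Krt14 were both seen in 96.1% of basal cells in RP and 97.5% in 377P, and in 19.6% and 34.3% of B or T cells. If the genes were detected independently, their separate shares would give 95.9% and 97.47% of basal cells. Krt5 was seen in 96.9% of basal cells in RP and 97.5% in 377P, and Krt14 in 98.97% and 99.96%. At such shares the joint share could hardly differ, so the basal values cannot tell whether detection was independent. Krt8 and Krt18 were both seen in 66.4% of mucous cells in RP and 57.5% in 377P, against 1.74% and 0.454% of B or T cells, and independence would give 66.36% and 56.1% of mucous cells. Krt4 and Krt13 were both seen in 33.5% of suprabasal cells in RP and 14.2% in 377P, with Krt4 as the rarer partner. For this pair independence would give less, 28.5% in RP and 11.2% in 377P. Summed over the family, type I UMIs outnumbered type II UMIs 2.70-fold in RP and 2.81-fold in 377P in basal cells, 1.78-fold and 1.89-fold in suprabasal cells, and 1.68-fold and 1.84-fold in mucous cells.

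Past a 2-fold ratio more members were higher in RP than lower. Of all genes with at least 20 UMIs in keratinocytes 10.0% were at least 2-fold higher in RP and 2.02% at least 2-fold lower. Of the 35 members tested there 12 were higher (34.3%) and 1 was lower (2.86%). The 12 were Krt4, Krt6b, Krt7, Krt8, Krt17, Krt18, Krt19, Krt23, Krt75, Krt77, Krt78 and Krt80, and the other was Krt79. By group they comprised 5 of 6 simple, 2 of 4 stress, 1 of 2 oral suprabasal, 1 of 5 cornified, 0 of 3 basal and 3 of the 15 other keratins. The median log2 ratio was 0.59 over the members and 0.04 over all genes. Under a coarser clustering (resolution 0.5) the number higher was 4 of 31, namely Krt75, Krt77, Krt78 and Krt90. No simple keratin, Krt4, Krt6b or Krt17 was among them. The share of all genes was not counted at that resolution.

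Within basal cells, where 7.23% of all genes were higher in RP and 2.0% lower, 8 of 28 members were higher (Krt4, Krt7, Krt8, Krt18, Krt19, Krt23, Krt75 and Krt79) and Krt222 was lower. The set higher turned with the clustering: at resolution 0.5 it was Krt1, Krt24, Krt75, Krt76, Krt77 and Krt90, of which 1 is among the 8, and 8 members were lower, and with cluster 13 counted as basal it was Krt4 and Krt75. Asking in addition for 2 times the level of B or T cells left 4 of 20. The share of all genes was not counted under this requirement, at resolution 0.5 or with cluster 13 counted as basal. These counts are therefore not read as results about keratins. B or T cells themselves had 6 of 25 members higher in RP and 1 lower, against 7.22% and 2.67% of all genes. Within suprabasal cells (10.8% and 1.93% of all genes) 9 of 30 members were higher and Krt79 was lower. In clusters 2 and 19 alone (4.38% and 2.41%) 5 of 28 were higher and 1 lower, and in clusters 0 and 18 alone (4.24% and 2.12%) 5 of 27 were higher and 1 lower. In both pairs 4 of those 5 were simple keratins, which in these clusters lay at or near background. The genes that lead the layers, Krt5, Krt14, Krt13, Krt6a and Krt16, passed 2-fold in neither pair. In glands the counts were small: 2 of 24 were higher and 1 lower in mucous cells (4.56% and 6.23% of all genes), and 1 of 20 was higher and 3 lower in serous cells (5.70% and 8.39%). In cluster 3 (5.79% and 5.09%) 4 of 25 were higher and 6 lower, among the lower ones Krt14 with 2475 CPM in RP and 7078 CPM in 377P.

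**Figure D5:**
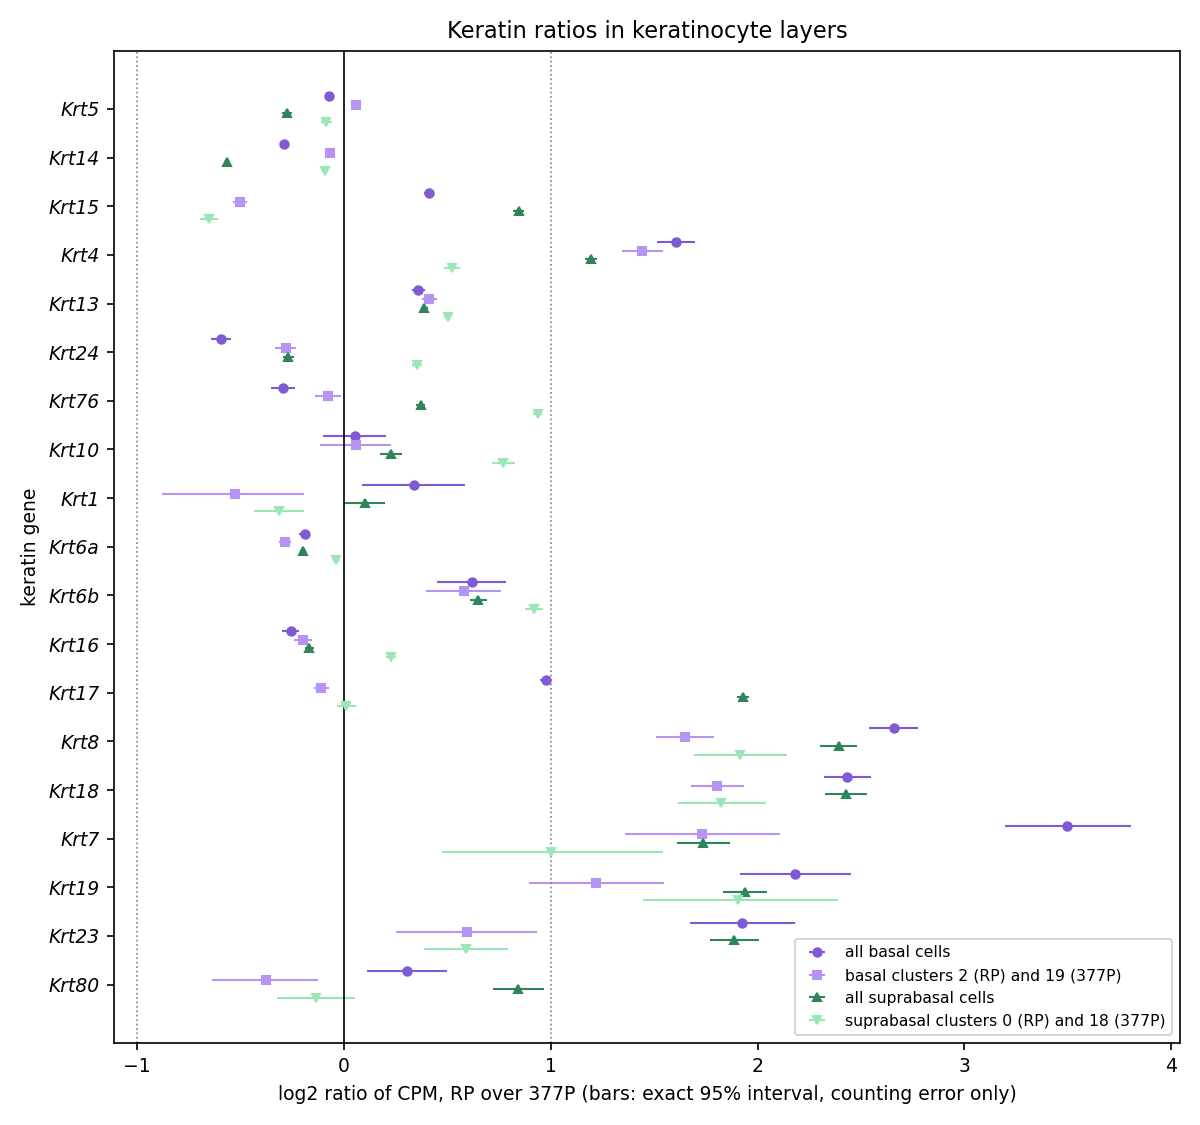
Log2 ratio of CPM, RP over 377P, for 19 keratins in all basal cells, basal clusters 2 and 19, all suprabasal cells and suprabasal clusters 0 and 18, with exact 95% intervals for counting error as bars and dotted lines at 2-fold. In all basal cells Krt7, Krt8 and Krt18 lie furthest right. Krt17 is near 0 in the counterpart clusters, and Krt15 lies right of 0 in all cells and left of it in those clusters.

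The summed keratin level of keratinocytes was 23403 CPM in RP and 20238 CPM in 377P, a log2 ratio of 0.21. By layer the log2 ratio was -0.06 in basal cells and 0.15 in suprabasal cells. The pooled ratio turned negative with a stricter mitochondrial limit (-0.22), with keratin genes kept for clustering (-0.0026) and at resolution 0.5 (-0.18).

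Genes that work with keratins are counted beside the 10.0% of all genes higher and 2.02% lower in keratinocytes, and counts near these shares are not read as a result. Of 10 linkers that tie keratin filaments to desmosomes and hemidesmosomes, 2 were at least 2-fold higher in RP in keratinocytes and 0 lower: Ppl (periplakin) had 97.1 CPM in RP and 40.4 CPM in 377P, and Pkp2 (plakophilin 2) had 3.41 and 1.35 CPM. Of 13 transcription factors known to act on keratin genes, only Grhl3 was higher, with 23.5 CPM in RP and 10.4 CPM in 377P, and 0 were lower. Of 6 genes of filament bundling, only Flg (filaggrin) was higher, with 85 UMIs in RP and 22 in 377P. Of 8 other intermediate filament genes, 0 were higher and only Gfap was lower, with 6 and 19 UMIs.

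The remaining members were mostly rare, and 14 of the 43 had fewer than 100 UMIs in all. Krt80, a type II keratin of differentiating epithelia, had 98.3 CPM in RP and 54.8 CPM in 377P in suprabasal cells. Krt42, a type I keratin of nail in mouse, had 53.8 CPM in RP and 62.4 CPM in 377P, but 2 cells held 647 of its 869 UMIs in RP and 2 cells held 545 of 882 in 377P. Krt32, a hair keratin also made in tongue, had 25.6 and 47.0 CPM. Krt79, known in mouse from hair follicle openings, had 3.41 CPM in RP and 46.6 CPM in 377P in suprabasal cells, but few cells carried it. In cluster 18 of 377P 2 cells held 215 of its 235 UMIs, and in cluster 3 of 377P 2 cells held 257 of 424.

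The keratins of 3 small clusters without a name are given with how few cells carried some of them. Cluster 15 (89 cells in RP, 12 in 377P; led by Clca3b and Psca) had 4730 CPM of Krt13 in RP and 3488 CPM in 377P, 1612 and 3154 CPM of Krt7, 1633 and 1945 CPM of Krt23 and 1393 and 2182 CPM of Krt19. Among all clusters Krt12, known as a keratin of the cornea, was highest there, with 157 CPM in RP and 625 CPM in 377P, and so was Krt78, with 105 and 361 CPM. Few cells carried Krt12: 2 cells held 74 of its 96 UMIs in RP, and 1 cell held all 45 in 377P. Cluster 17 (50 cells in RP, 19 in 377P; led by U90926, with Odam, an enamel organ gene, among its leading genes) had 15534 CPM of Krt14 in RP and 9959 CPM in 377P, and 3613 and 5071 CPM of Krt17. It also had 57.5 CPM of Krt42 in RP and 538 CPM in 377P, and 97.6 CPM of Krt90 in RP and 0 UMIs in 377P. Of the Krt42 UMIs of 377P 1 cell held 109 of 171, and of the Krt90 UMIs of RP 1 cell held 34 of 39. Cluster 13 (12 cells in RP, 359 in 377P; led by Ccer2 and Chil4) joined basal and simple keratins in 377P, with 4201 CPM of Krt14, 2460 CPM of Krt17 and 707 CPM of Krt8.

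Krt83 and Krt222 were highest outside the epithelium. Krt83, a hair keratin, had 27.6 CPM in RP and 17.3 CPM in 377P in T or NK cells and 48.1 and 57.3 CPM in neutrophils, against 0.648 and 0.549 CPM in B or plasma cells and 0.522 and 0.461 CPM in basal keratinocytes. Krt222 had 10.4 CPM in RP and 7.24 CPM in 377P in B or plasma cells, from 16 and 66 UMIs, against 1.25 and 1.31 CPM in T or NK cells.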

How the data were processed

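Single cells of mouse maxillary periodontium were measured in 2 libraries of the 10x Genomics Chromium 3' v3 kit, RP and 377P. The deposited matrices hold raw UMI counts per gene and barcode. Cell Ranger 7.0.1 wrote them, per the file headers. STAR and mm10 are named in the submitters' processing notes. Neither the annotation release nor the treatment of introns is stated in the sources used here. No member overlaps another gene on its own strand in the annotation, but reads shared with a near copy could be lost or split.

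Barcodes were kept from 200 genes on and up to 20% mitochondrial UMIs, and doublets called by Scrublet in Scanpy 1.11.5 were removed (569 in RP, 3.29%, and 836 in 377P, 5.45%). Kept cells had medians of 4301 UMIs in RP and 5102 UMIs in 377P. Cells were clustered with the Leiden algorithm (igraph 0.11.9, resolution 1.0) on 3000 variable genes, and epithelial cells again on 2000, without keratin genes and without integration. Clusters were named from non-keratin markers. The naming limits and clustering settings were set after clusters and their keratin levels had been seen, and 5 settings were tried. The members and gene lists were chosen with earlier results of these data known.

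For each class and library the UMIs of a gene were added up and divided by the class total (CPM). A ratio is RP over 377P, given where the class held at least 20 UMIs of the gene over both libraries, and a gene is counted past 2-fold. Intervals of levels and ratios are exact 95% Poisson intervals and those of shares Clopper-Pearson intervals. All cover counting error only. In ratios, 0 UMIs were replaced by a floor of 3. Shares of cells were taken after thinning each cell to 2000 UMIs. Members with at least 1000 CPM in a named class of at least 50 cells are described in full, and the others by counts, range and where they are highest. The steps were tested on simulated data. Alternatives changed the mitochondrial limit, doublets, clustering, scaling, background and UMI minimum.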

Additional observations from a re-analysis of the deposited data

How the results depend on the processing

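Of the counts past 2-fold in keratinocytes, the number higher in RP (12) stayed within 1.5 times under 17 of 18 alternatives and was 4 at resolution 0.5. The 17 are not equal checks. A floor of 1 count could not change the number, since every tested member had UMIs in both libraries. Median-of-ratios size factors and leaving out shared barcodes hardly changed the values, so they could move it little. The set of members changed more than its number. In the counterpart clusters alone 9 were higher, of which 7 are among the 12. Krt10 and Krt76 were new there, and Krt17, Krt23, Krt75, Krt77 and Krt80 were missing. The number lower (1) was 3 with at most 10% mitochondrial UMIs or with keratin genes kept, 4 at resolution 0.5, and 2 at resolution 2.0, with free RNA subtracted or from 1 UMI on. In basal cells the number higher (8) was 5 with at most 10% mitochondrial UMIs, 4 with at least 1000 UMIs a cell, 14 from 1 UMI on, 5 in clusters 2 and 19 alone, 2 with cluster 13 counted as basal and 4 at 2 times the B or T cell level. The number lower there (1) was 11 of 24 with at most 10% mitochondrial UMIs, 7 of 25 with keratin genes kept and 8 of 29 at resolution 0.5. It was 3 with at least 1000 UMIs a cell, at resolution 2.0 or from 1 UMI on, and 2 with free RNA subtracted. From 100 UMIs on or at 2 times the B or T cell level it was 0. Except for clusters 2 and 19 alone, the share of all genes past 2-fold was not counted under these alternatives. Their counts are therefore not read as results about keratins.

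The log2 ratio of summed keratin CPM (0.21) was reversed at most 10% mitochondrial UMIs (-0.2209), with keratin genes kept (-0.0026) and at resolution 0.5 (-0.1809). It was 0.2351 with doublets kept, 0.3439 with at least 1000 UMIs a cell and 0.1670 at resolution 2.0. With each library clustered on its own it was 0.1241. It was 0.0443 with each layer weighted by its cell number over both libraries, so that both libraries had the same layer weights. Median-of-ratios size factors gave 0.2052, and subtracting free RNA gave 0.2421. The log2 ratio was 0.2007 in the counterpart clusters and 0.2526 with cluster 13 counted as basal. Leaving out the 82 shared barcodes gave 0.2093. The cause of these shifts was not tested.

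The counterpart clusters, the shared barcodes, the count of cluster 13 as basal and the B or T cell requirement were chosen after seeing the data. No paired analysis was possible because each title has 1 library. Depth limits the 14 members with fewer than 100 UMIs.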
